A study of Mus musculus with 8 samples.

Results

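The circadian clock genes of the mouse heart were followed in 8 hearts, in which 9 of 10 clock genes could be read among 19938 measured genes. The 10 genes were Per1, Per2, Per3, Nr1d1, Nr1d2, Dbp, Tef, Hlf, Clock and Npas2. A gene was read from the probe set annotated with its symbol alone and, among several, from the one with the highest mean level. Each of the 9 genes had 1 such probe set, so that last step decided nothing for them. Npas2 was not analysed here.

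Expression was measured on Affymetrix whole-transcript arrays, 1 per mouse, as log2 values computed by the authors with RMA. All mice were 9 weeks old and of C57Bl6 background. They were wild type (WT) or homozygous for S105A, a serine-to-alanine substitution in the heart transcription factor GATA4, and were either untreated or given PE, which the labels spell out as pseudoephedrine, an adrenergic stimulus. Osmotic pumps released PE subcutaneously for 5 days, at a daily dose of 100 mg per kg. The protocol names saline as the alternative to PE, although the titles call these animals untreated. The titles give the tissue as whole heart and the tissue field adds ventricle. Each group held 2 animals: WT hearts were arrays 1 and 2 (untreated) and arrays 3 and 4 (PE), and S105A hearts were arrays 5 and 6 (untreated) and arrays 7 and 8 (PE). The labels used here give no time of day for tissue collection, so a group difference and a difference in time of collection cannot be told apart.

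The clock is a feedback loop of transcription. CLOCK, or its relative NPAS2, pairs with BMAL1, the product of Arntl, and activates genes through E-boxes. Among the targets are the Per and Cry genes, whose proteins return to repress that activation, and Nr1d1 and Nr1d2, which encode the REV-ERB repressors that bind ROR elements and hold Arntl down. Dbp, Tef and Hlf encode bZIP factors that carry the rhythm to other genes through D-boxes. In tissues such as the heart, Arntl and its partner genes peak when Nr1d1 and Dbp are low, so a shift in clock phase can move them in opposite directions. Opposite movement alone does not show such a shift, and phase was not tested here.

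The promoter letters of 4 of the clock genes and of Ciart, a clock repressor gene with the widest range among the clock partners described below, show which of these elements stand close to the start site. RefSeq promoter windows of build GRCm38.p6 matched 9 of the 10 named genes. Each run below is the 250 bases before the first listed start, 5′ to 3′ on the gene's strand, and capitals mark any match of 5 motifs sought on both strands.

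Per1 (chr11:69098699-69098948, plus strand): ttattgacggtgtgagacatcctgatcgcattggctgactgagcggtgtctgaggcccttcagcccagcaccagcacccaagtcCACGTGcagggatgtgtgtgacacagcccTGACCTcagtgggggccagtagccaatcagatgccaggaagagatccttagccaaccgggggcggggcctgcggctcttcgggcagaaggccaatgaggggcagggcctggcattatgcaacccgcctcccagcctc
Per3 (chr4:151044666-151044915, minus strand): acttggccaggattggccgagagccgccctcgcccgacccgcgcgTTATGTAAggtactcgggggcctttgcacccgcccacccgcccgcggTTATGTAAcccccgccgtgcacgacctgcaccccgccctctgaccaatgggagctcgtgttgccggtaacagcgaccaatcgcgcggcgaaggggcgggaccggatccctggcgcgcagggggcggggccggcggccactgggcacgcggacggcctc
Tef (chr15:81802423-81802672, plus strand): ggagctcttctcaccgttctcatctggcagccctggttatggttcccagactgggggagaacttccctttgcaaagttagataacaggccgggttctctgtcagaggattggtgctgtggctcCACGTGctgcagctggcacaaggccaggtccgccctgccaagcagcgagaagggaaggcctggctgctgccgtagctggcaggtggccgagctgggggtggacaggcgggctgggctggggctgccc
Nr1d1 (chr11:98775378-98775627, minus strand): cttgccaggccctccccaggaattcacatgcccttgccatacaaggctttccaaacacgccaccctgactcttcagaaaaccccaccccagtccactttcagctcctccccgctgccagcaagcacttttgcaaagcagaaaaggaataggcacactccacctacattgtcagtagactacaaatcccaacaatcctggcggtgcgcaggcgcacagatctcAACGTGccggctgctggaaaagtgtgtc
Ciart (chr3:95882229-95882478, minus strand): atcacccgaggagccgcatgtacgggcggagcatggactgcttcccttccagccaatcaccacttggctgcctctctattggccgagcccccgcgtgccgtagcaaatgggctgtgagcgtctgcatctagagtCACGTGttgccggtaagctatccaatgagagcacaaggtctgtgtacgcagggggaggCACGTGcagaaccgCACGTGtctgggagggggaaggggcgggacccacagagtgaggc

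In Per1 the E-box CACGTG began at position -166 counted from the start site, and the ROR element core AGGTCA, here on the opposite strand, at -137. Per3 held the D-box TTATGTAA at -205 and again at -158. The second Per1 promoter, not shown, held none of the 5 motifs. The first Tef promoter held CACGTG at -127, and its second, not shown, at -138. Nr1d1 held the E-box variant CACGTT, on the opposite strand, at -28. Ciart held CACGTG 3 times, at -116, -58 and -44. Among 32851 promoter windows of 250 bases, 6.02% held CACGTG, 3.85% CACGTT, 0.931% TTATGTAA or TTACGTAA, 14.0% AGGTCA and 1.55% the cyclic AMP response element TGACGTCA. The last lay in Hlf, at -9, and AGGTCA also in Nr1d2, at -77. Dbp and both Arntl windows held none of the 5 motifs. These matches describe letters and not binding.

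Array 3 stood apart from the others. It was the lowest of the 8 arrays for 25.9% of all genes and the highest for 23.4%. Markers of other cells moved with PE. The mean of 10 fibroblast markers was 8.84 to 9.06 in untreated hearts and 9.80 to 10.9 with PE, with the highest value in array 3 and 10.7 in array 7. For 10 macrophage markers the ranges were 7.76 to 8.25 and 8.35 to 9.38. The mean of 8 ventricular cardiomyocyte markers was 13.2 in array 3 and 13.5 to 13.6 in the rest. Of the 8, Actc1 (14.12) and Tnnt2 (13.83) were instead highest in array 3, and all the others were lowest there. For the lower markers, fewer cardiomyocytes and less RNA per cardiomyocyte cannot be told apart in whole tissue. Of 5 atrial markers, Sln ranged over 0.22, Bmp10 over 0.39, Myl7 over 0.49 and Myl4 over 0.90 log2 units across the arrays. Nppa, an atrial gene that loaded ventricles also express, was 10.73 to 11.84 in untreated hearts and 12.92 to 13.95 with PE. How much atrium the samples held was not tested. Median values of the arrays lay between 6.18 and 6.23.

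No clock gene passed an adjusted p of 0.05 in any of the 7 contrasts fitted with limma, which were PE in each genotype, S105A against WT in each treatment, the 2 averages and the genotype difference in the PE effect. Over all genes, 0.00502% passed for PE in WT, the average PE effect and the average genotype effect, and 0% in the other contrasts. At an unadjusted p under 0.05, 1 of 9 clock genes stood out for PE in WT (11.7% of all genes), 1 for PE in S105A (5.86%), 0 for the average PE effect (16.7%) and 0 for the genotype difference in that effect (2.42%). For S105A against WT the counts were 2 without PE (4.96%), 1 with PE (2.68%) and 2 on average (4.99%). Several of the genes ranged widely over the hearts. Hlf spanned 1.28 log2 units over the 8 arrays, or 2.43-fold, Dbp 1.22 and Nr1d2 1.02, against a median range of 0.37 over all genes.

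**Figure D1:**
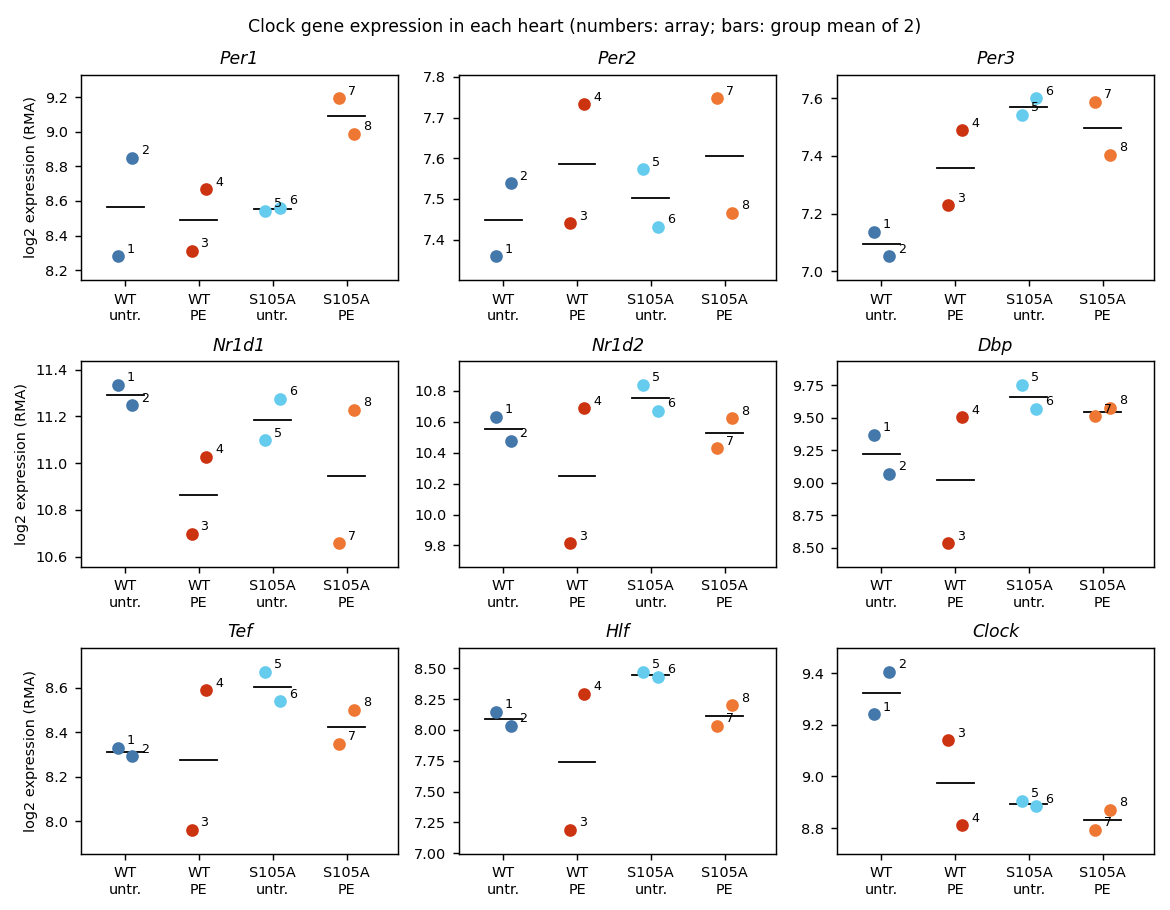
Log2 expression (RMA values, vertical axes with different ranges) of the 9 clock genes in each heart, grouped by genotype and treatment (untr., untreated), with the array number beside each point and a bar at the mean of each pair. Array 3 lies lowest for Nr1d2, Dbp, Tef and Hlf, while Clock is highest in arrays 1, 2 and 3.

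Clock, the DNA-binding activator of the loop (probe set 10530733), read 9.24 and 9.40 in WT untreated, 9.14 and 8.81 in WT PE, 8.90 and 8.88 in S105A untreated, and 8.79 and 8.87 in S105A PE. The 2 WT untreated hearts and array 3 were thus higher than each of the other 5 hearts. In WT the PE hearts lay below the untreated ones without overlap, with a log2 difference of -0.35 (SE 0.12, limma adjusted p = 0.419, unadjusted p = 0.0279). It was -0.51 without array 3 and -0.18 without array 4. In S105A the difference was -0.06 (SE 0.12, limma adjusted p = 0.897). Both PE hearts lay below both untreated ones by a narrow margin, with array 8 (PE) at 8.871 and array 6 (untreated) at 8.884. The average PE effect on Clock was -0.21 (SE 0.09, adjusted p = 0.302).

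Arntl, the partner gene of Clock, is not among the 10 genes but split the hearts in the same way. Its log2 values were 7.33 and 7.37 in WT untreated, 7.72 and 6.71 in WT PE, 6.48 and 6.82 in S105A untreated, and 6.95 and 6.79 in S105A PE. Arrays 1, 2 and 3 were again the 3 highest, but the order within them and within the rest differed from that of Clock. The 2 WT PE hearts lay 1.00 log2 units apart. In arrays 1, 2 and 3 the mean of the fibroblast markers was 8.96, 9.06 and 10.9, and its part in the Arntl values was not tested.

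The Per genes encode the repressors of the loop, and Per1 and Per2 are also induced by stress hormones and cyclic AMP. Per1 (probe set 10377439) read 8.28 and 8.85 in WT untreated, 8.31 and 8.67 in WT PE, 8.54 and 8.56 in S105A untreated, and 9.19 and 8.99 in S105A PE. The 2 S105A PE hearts held the highest values of the 8, and in WT the groups overlapped. The PE difference was 0.54 in S105A (SE 0.20, limma adjusted p = 0.765, unadjusted p = 0.0350) and -0.08 in WT (SE 0.20, adjusted p = 0.893). The sign in WT turned to 0.21 without array 2 and to 0.10 without array 3. The genotype difference in this PE effect was 0.61 (SE 0.29, adjusted p = 1.00), and S105A PE exceeded WT PE by 0.60 (SE 0.20, adjusted p = 0.989).

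Per2 (probe set 10356601) differed little between groups, at 7.36 and 7.54 in WT untreated, 7.44 and 7.73 in WT PE, 7.57 and 7.43 in S105A untreated, and 7.75 and 7.47 in S105A PE. Within each group its 2 hearts differed by 0.14 to 0.29 log2 units, so the groups overlapped in both genotypes. The PE differences of 0.14 in WT and 0.10 in S105A (SE 0.15 each) were within that spread, and they turned to -0.0092 without array 4 and -0.037 without array 7.

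Per3 (probe set 10518781), whose promoter holds the 2 D-boxes printed above, varied between hearts and passed the adjusted threshold in none of the 7 contrasts. It read 7.14 and 7.05 in WT untreated, 7.23 and 7.49 in WT PE, 7.54 and 7.60 in S105A untreated, and 7.59 and 7.40 in S105A PE. Arrays 1, 2 and 3 held the 3 lowest values, the reverse of Clock and Arntl. Without PE, S105A exceeded WT by 0.48 (SE 0.12, limma adjusted p = 0.962, unadjusted p = 0.00476), the smallest unadjusted p of any clock gene in the 7 contrasts. With PE the genotypes overlapped, since array 4 lay within the S105A PE values. In WT both PE hearts were above both untreated hearts, by 0.26 on average (SE 0.12, adjusted p = 0.419), and in S105A the difference was -0.07 (SE 0.12). The latter was 0.017 without array 8. The genotype difference in the PE effect was -0.34 (SE 0.16, adjusted p = 1.00).

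Nr1d1 and Nr1d2 encode the REV-ERB repressors of Arntl. Nr1d1 (probe set 10390691) read 11.33 and 11.25 in WT untreated, 10.70 and 11.03 in WT PE, 11.10 and 11.27 in S105A untreated, and 10.66 and 11.23 in S105A PE. One heart of each PE pair, arrays 3 and 7, was low, and both WT PE hearts lay below both WT untreated hearts. These 2 arrays are also those with the highest fibroblast and macrophage markers, and the part of such markers in the result was not tested. The PE difference was -0.43 in WT (SE 0.20, limma adjusted p = 0.420) and -0.24 in S105A (SE 0.20, adjusted p = 0.779), and the average was -0.34 (SE 0.14, adjusted p = 0.299), the smallest adjusted p of any clock gene in the 7 contrasts. Without array 3 the WT value was -0.26, and without array 7 the S105A value was 0.042.

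Nr1d2 (probe set 10417734) read 10.63 and 10.48 in WT untreated, 9.82 and 10.69 in WT PE, 10.84 and 10.67 in S105A untreated, and 10.43 and 10.62 in S105A PE. Array 3 was low, 0.61 log2 units below the next lowest heart, while its group mate array 4 exceeded both WT untreated hearts. In S105A both PE hearts lay below both untreated hearts. The PE difference was -0.30 in WT (SE 0.26) and -0.23 in S105A (SE 0.26). The WT value was 0.13 without array 3 and -0.74 without array 4.

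The output factors Dbp, Tef and Hlf shared the low value of array 3. Dbp (probe set 10553092), the most strongly rhythmic of these factors in many tissues, read 9.37 and 9.07 in WT untreated, 8.54 and 9.50 in WT PE, 9.75 and 9.57 in S105A untreated, and 9.51 and 9.58 in S105A PE. All 4 S105A hearts exceeded all 4 WT hearts, although array 4 came within 0.01 of them. The average genotype difference was 0.48 (SE 0.20, limma adjusted p = 0.927), and 0.24 without array 3. Dbp was the 1 of 9 clock genes whose genotypes did not overlap, against 3.12% of all genes.

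Tef (probe set 10425601) read 8.33 and 8.29 in WT untreated, 7.96 and 8.59 in WT PE, 8.67 and 8.54 in S105A untreated, and 8.35 and 8.50 in S105A PE. Hlf (probe set 10389786) read 8.15 and 8.03 in WT untreated, 7.19 and 8.29 in WT PE, 8.47 and 8.43 in S105A untreated, and 8.03 and 8.20 in S105A PE. For both genes array 3 was the lowest heart, array 4 lay above both WT untreated hearts, and the S105A PE hearts lay below the S105A untreated hearts. Hlf had the wider gap, with array 3 at 0.84 log2 units below the next lowest heart, against 0.33 for Tef. The PE differences in WT were -0.20 for Dbp (SE 0.29), -0.04 for Tef (SE 0.19) and -0.35 for Hlf (SE 0.31). In S105A they were -0.12, -0.18 and -0.33 with the same SEs. Without array 3 all WT values became positive, at 0.28 for Dbp, 0.28 for Tef and 0.20 for Hlf. Without array 4 they were -0.68, -0.35 and -0.90. In that fit WT PE was array 3 alone, which was assumed to vary like the other groups.

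**Figure D2:**
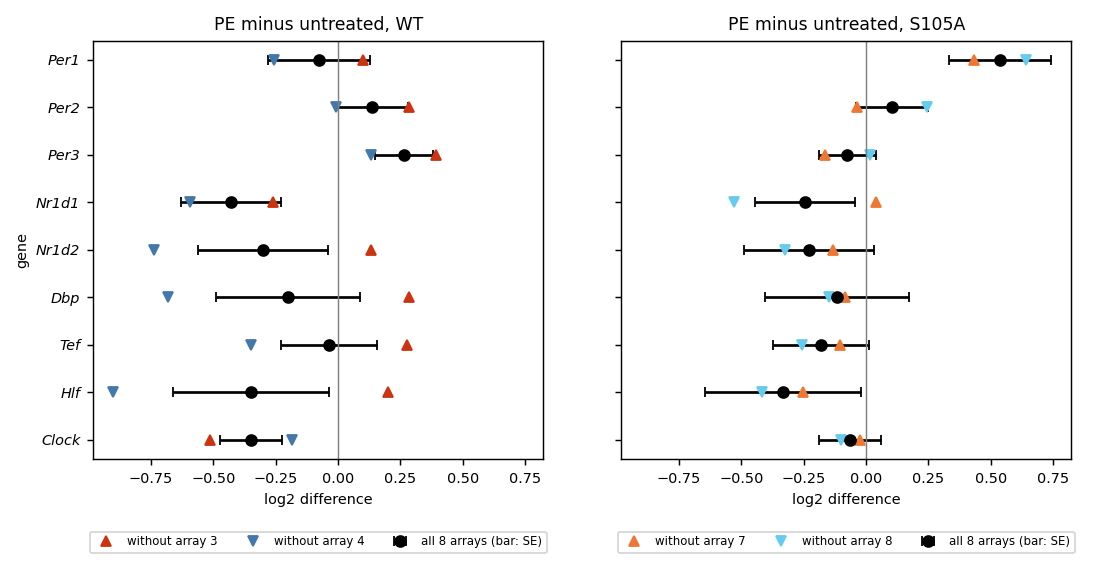
Log2 difference of PE from untreated hearts for the 9 clock genes in WT (left) and S105A (right), with black points and SE bars for the fit of all 8 arrays and triangles for fits without 1 PE array. In WT the triangles without array 3 and without array 4 lie on opposite sides of 0 for Per1, Per2 (barely), Nr1d2, Dbp, Tef and Hlf.

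Of the 9 clock genes, 7 differed more between the 2 WT PE hearts than within any other group, and 43.4% of all genes did so. The exceptions were Per1, which differed most in WT untreated, and Nr1d1, which differed most in S105A PE. All 8 Per, Nr1d, Dbp, Tef and Hlf genes were lower in array 3 than in array 4, with a median difference of -0.49, while Clock was 0.33 and Arntl 1.00 higher. In WT untreated 6 of the 8 were higher in array 1 than in array 2 (median 0.09), in S105A untreated 5 were higher in array 5 than in array 6 (median 0.09), and in S105A PE 3 were higher in array 7 than in array 8 (median -0.11). The median size of the difference between the WT PE hearts, regardless of sign, was 0.36 over the 9 clock genes and 0.16 over all genes. The within-group SD was 0.40 for Hlf, 0.36 for Dbp and 0.33 for Nr1d2, and 4.35%, 5.46% and 6.93% of all genes had a larger one. For Per3 and Clock it was 0.12 and 0.13, near the median of all genes at 0.12.

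A balance of the clock was formed for each heart as the mean deviation of the 8 repressor and output genes from their own means, minus that of Clock. It was -0.29 and -0.46 in WT untreated, -0.62 and 0.31 in WT PE, 0.28 and 0.25 in S105A untreated, and 0.27 and 0.25 in S105A PE. Arrays 1, 2 and 3 were negative and the other 5 lay within 0.06 log2 units of each other. Clock deviated from its mean by 0.23, 0.40 and 0.13 in arrays 1, 2 and 3, and made up most of the balance in arrays 1 and 2. There the 8 genes lay on both sides of their means, with Nr1d1 at 0.26 and 0.18 and Per3 at -0.24 and -0.33. In array 3 all 8 lay below their means and made up most of the balance. This order cuts across treatment and genotype, was seen in the values themselves and was given no test. Leaving out Per1 and Per2 gave -0.22, -0.51 and -0.70 in arrays 1 to 3 and 0.17 to 0.36 in the rest, and adding Arntl to Clock, chosen after seeing the data, gave -0.33, -0.44 and -0.90 and 0.20 to 0.50.

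**Figure D3:**
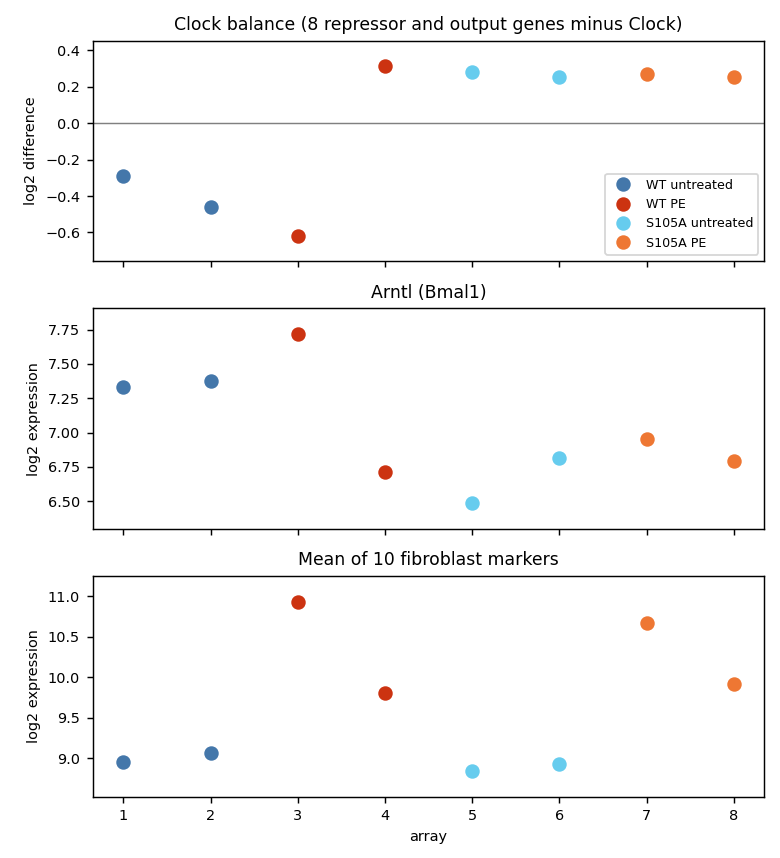
Clock balance (log2 difference), Arntl expression and the mean of 10 fibroblast markers (log2 expression) in each heart, coloured by group. The balance is negative and Arntl is high in arrays 1, 2 and 3, and fibroblast markers are high in all 4 PE hearts and highest in arrays 3 and 7.

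S105A and WT untreated hearts had 6 of 9 clock genes without overlap, against 44.5% of all genes. They lay on different sides of that balance, which is formed from the same 9 genes, so this count is not independent of it. Higher in S105A were Per3, Nr1d2, Dbp, Tef and Hlf, which is 5 genes against 21.8% of all genes, and Clock was lower. The differences were 0.20 for Nr1d2 (SE 0.26), 0.44 for Dbp (SE 0.29), 0.29 for Tef (SE 0.19), 0.36 for Hlf (SE 0.31) and -0.43 for Clock (SE 0.12, limma adjusted p = 0.962). Arntl differed by -0.70 (SE 0.30, adjusted p = 0.962). With PE, 2 of 9 did not overlap, Per1 and Dbp, against 23.6% of all genes, and the Dbp difference of 0.52 (SE 0.29) was 0.04 without array 3. The untreated WT hearts enter both this comparison and that of PE in WT. Averaged over treatments, Per3 differed by 0.31 (SE 0.08, adjusted p = 0.927), Clock by -0.29 (SE 0.09) and Arntl by -0.52 (SE 0.21), each with an adjusted p of 0.927.

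In the PE comparisons the groups of 3 of 9 clock genes did not overlap in WT (Per3, Nr1d1 and Clock, against 46.2% of all genes) and those of 5 of 9 in S105A (Per1, Nr1d2, Tef, Hlf and Clock, against 45.5%). Over both genotypes 0 of 9 did, against 12.8%. The median PE difference over the 9 genes was -0.20 in WT, -0.12 in S105A and -0.16 on average, beside medians of -0.0041, -0.023 and -0.017 over all genes. Of the counts without overlap, that in S105A lies near but above the share of all genes, and the others lie below it.

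Other clock components gave 16 measured genes of 19 listed names, of which Bmal1 is another name of Arntl. None passed the adjusted threshold in any of the 7 contrasts by limma, and 3 had an unadjusted p under 0.05 for the average PE effect, against 16.7% of all genes. Bhlhe40, a repressor of CLOCK and BMAL1 activity, had values of 8.10 and 8.22 in WT untreated, 8.49 and 8.42 in WT PE, 8.23 and 8.03 in S105A untreated, and 8.51 and 8.33 in S105A PE. All PE hearts lay above all untreated hearts, with an average difference of 0.29 (SE 0.08, limma adjusted p = 0.275). Its relative Bhlhe41 differed by 0.27 (SE 0.11, adjusted p = 0.298). Cry1, a repressor that acts with the Per proteins, was lower in all PE hearts than in all untreated hearts, by -0.19 (SE 0.07, adjusted p = 0.285). The margin was narrow, with array 4 (PE) at 6.623 and array 2 (untreated) at 6.630. Of the 16 genes, 3 had PE and untreated hearts without overlap (Cry1, Bhlhe40 and Fbxl21), against 12.8% of all genes. Fbxl21, an F-box gene linked to Cry turnover, differed by 0.44 (SE 0.21), and by 0.19 without array 3, where it was highest at 6.33.

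Cry2 and Ciart followed Dbp. Cry2 read 8.15 and 8.04 in WT untreated, 7.68 and 8.44 in WT PE, 8.42 and 8.39 in S105A untreated, and 8.29 and 8.32 in S105A PE. Ciart, whose promoter holds the 3 E-boxes, read 8.29 and 8.22 in WT untreated, 6.96 and 8.97 in WT PE, 8.70 and 8.46 in S105A untreated, and 8.44 and 8.91 in S105A PE. In both genes arrays 1, 2 and 3 were the 3 lowest, and the WT PE hearts lay furthest apart, by 2.01 log2 units for Ciart. Its second probe set had the lowest value in array 3 as well, at 6.40 against 7.57 in array 4. Nfil3, a repressor at D-boxes, ranged over 0.25 log2 units and Rora, an activator at ROR elements, over 0.28, both less than the median gene at 0.37.

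**Figure D4:**
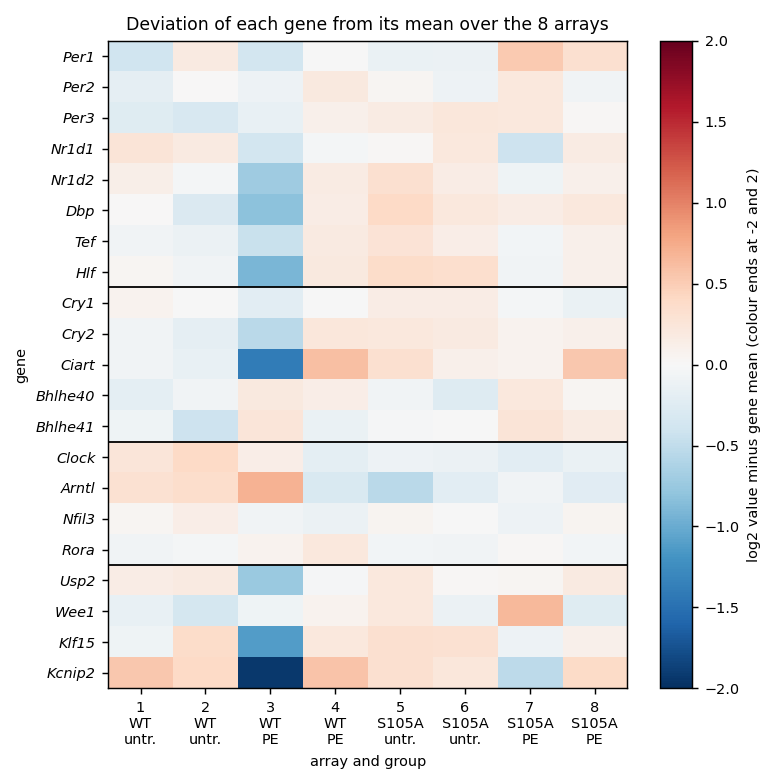
Deviation of each gene's log2 value from its own mean (colour) in the 8 arrays (columns, with group; untr., untreated), for 8 clock repressor and output genes, other repressors, activators and ROR element factors, and rhythmic targets from top to bottom. Array 3 is blue for Nr1d2, Dbp, Tef, Hlf, Cry2, Ciart, Usp2, Klf15 and Kcnip2 and red for Arntl.

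A list of rhythmic genes thought to be driven by the clock was read for 11 of 13 names, and 0 passed the adjusted threshold in any of the 7 contrasts by limma. For the average PE effect 2 of the 11 had an unadjusted p under 0.05, a share near the 16.7% of all genes. They were Tspan4 (0.61, SE 0.14, adjusted p = 0.275) and Lonrf3 (0.24, SE 0.07, adjusted p = 0.275). Kcnip2, the potassium channel subunit behind the transient outward current, read 10.43 and 10.28 in WT untreated, 7.95 and 10.46 in WT PE, 10.21 and 10.10 in S105A untreated, and 9.36 and 10.27 in S105A PE. It was low in arrays 3 and 7, the hearts with the highest fibroblast markers, whose part was not tested. Klf15, a metabolic transcription factor that acts on Kcnip2, was 7.63 in array 3 and 8.65 to 9.11 elsewhere, with an average PE difference of -0.45 (SE 0.28) that was -0.12 without array 3. Usp2, a deubiquitinase, was 9.54 in array 3 and 10.26 to 10.50 elsewhere (-0.28, SE 0.16, and -0.10 without array 3). Wee1, a cell cycle kinase, was highest in array 7 at 9.14 and lay at 8.15 to 8.71 in the others.

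The genes most like the 3 widest-ranging clock genes over the 8 arrays were sought by the root mean square difference of centred log2 values. Closest to Hlf was Ndufa4, a respiratory chain gene, at 0.05 log2 units, followed by Pccb (0.06), Atp5e (0.07) and Cox6a2 (0.07). Closest to Nr1d2 were Sdhd (0.05), Rbm20 (0.06), Dhrs7 (0.06) and Ndufv1 (0.06), and closest to Dbp were Mid1ip1 (0.09), Echdc2 (0.09), Art1 (0.10) and Mylk3 (0.12). With the sign turned, Ston1 was nearest to Nr1d2 (0.04), Sorbs3 to Dbp (0.07) and Dpy19l3 to Hlf (0.08). Fam189a2 was among the 4 nearest sign-turned genes for all 3, and Dpy19l3 likewise. Sdhd and Ndufv1 encode respiratory chain subunits as well. The clock genes themselves were left out of this search, so likeness among them was not examined by it. The lists hold none of the other clock components described above.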

How the data were processed

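RNA from 8 mouse hearts was hybridized to 1 array each. The deposited log2 values were computed by the authors with RMA, per the submitters' processing notes, which makes the arrays' distributions alike. Its version is not given in the sources used here, and values between 2.63 and 14.5 fit a log2 scale. Of 35557 rows, 21789 were annotated with 1 symbol, 1621 with several and 12147 with none, which left 19938 genes with 1 probe set each. A model with 1 coefficient per group was fitted with limma 3.58.1 (R 4.3.3) to all 8 arrays, with 4 residual degrees of freedom. P values are two-sided, adjusted by Benjamini-Hochberg over all genes within a contrast. Members and lists were chosen with earlier results of these data known. All members were named, with other genes by a fixed rule of smallest unadjusted p, fixed names or likeness of pattern. The fit was tested on simulated data. The labels number separate individuals, and 2 per group limit precision. Detection calls were not used, and levels of different probe sets were not ranked against each other. Lists of endothelial, smooth muscle, erythroid, adipocyte and cell cycle markers had means of 9.77 to 10.0, 8.65 to 8.89, 7.44 to 7.99, 5.22 to 5.42 and 5.77 to 5.97 in untreated hearts and 9.50 to 9.86, 8.85 to 9.98, 6.45 to 7.17, 5.20 to 5.32 and 6.43 to 7.53 with PE. Promoter motifs were sought with Python 3.11.15.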

Additional observations from a re-analysis of the deposited data

How the results depend on the processing

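The count of clock genes past the threshold was 0 in all 7 contrasts under every alternative that kept array 4: with array weights, after dropping the dimmest 40% of genes, on all rows, with probe sets averaged, with robust trended variance, after renewed quantile normalization, on the 4 arrays compared alone (4 contrasts), and without arrays 3 and 7. Fits that each left out 1 array gave 0 to 3 for PE in WT, 0 to 4 for the average PE effect, 0 to 3 for S105A against WT with PE and 0 to 2 for their average, each highest without array 4. Over these fits the WT PE difference ran from -0.36 to 0.21 for Per1, -0.0092 to 0.28 for Per2, -0.74 to 0.13 for Nr1d2, -0.68 to 0.28 for Dbp, -0.35 to 0.28 for Tef and -0.90 to 0.20 for Hlf, and the S105A one from -0.037 to 0.24 for Per2, -0.17 to 0.017 for Per3 and -0.53 to 0.042 for Nr1d1. Without arrays 3 and 7 the WT difference turned to 0.10 for Per1, 0.13 for Nr1d2, 0.28 for Dbp, 0.28 for Tef and 0.20 for Hlf, and the S105A one to -0.037 for Per2 and 0.042 for Nr1d1. The lone PE hearts left in those fits add nothing to the estimated spread. Without array 4, WT PE was likewise array 3 alone. Far more genes over the whole array then passed in the same contrasts than in the fit of all 8 arrays. The counts of clock genes past the threshold without array 4 therefore cannot be read as a result for the clock. No paired analysis was possible because the individuals are numbered 1 to 8 and no groups share a number.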

Other observations

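Per1 and Per2 also answer to immediate early and glucocorticoid signals, and genes of both kinds were read beside them. Of 11 immediate early genes, 6 had an unadjusted p under 0.05 for the average PE effect, against 16.7% of all genes, and 0 passed the adjusted threshold by limma. Of the 6, 5 were higher with PE and 1, Crem, was lower, by -0.23 (named after its value was seen). The mean log2 level of the 11 genes was 6.62 to 6.75 in the untreated hearts and 6.91 to 7.13 in the PE hearts, so the treatments did not overlap. Per1 differed by 0.23 (SE 0.14), with overlap.

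Glucocorticoid-induced genes gave 2 of 8 with an unadjusted p under 0.05 for the average PE effect, against 16.7% of all genes, and 0 past the adjusted threshold by limma. The average difference was negative for 5 of the 8. The 2 were the metallothionein gene Mt2 at 1.14 and Lcn2 at 1.24. Fkbp5, a chaperone gene induced by glucocorticoids, read 6.89 and 8.33 in WT untreated, 8.01 and 7.40 in WT PE, 6.95 and 6.94 in S105A untreated, and 7.80 and 7.02 in S105A PE. The 2 WT untreated hearts thus differed by more than any other pair of the same group, and Per1 was also higher in array 2, by 0.57. Zbtb16 was 10.62 in array 1 and 11.47 in array 2, and Klf9, another glucocorticoid target, had an average PE difference of -0.40. Tsc22d3 was lowest in array 3 at 8.97 and highest in array 7 at 9.79.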
